A study of Mus musculus with 18 samples.

Results

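The 10 genes H2-Aa, H2-Ab1, H2-Eb1, Cd74, Ciita, H2-DMa, H2-DMb1, H2-Oa, H2-Ob and Ctss of the MHC class II presentation pathway were followed through the colon of WT and Claudin-2TG mice. They were taken as the rows of the count table whose Ensembl identifiers carry these symbols, 10 of the 47729 genes listed, and each was found once. RNA came from whole colon of 9 mice on a C57BL/6 background, 3 in each of 3 groups. Naive WT mice (1 to 3) carry the treatment label Control. WT CAC mice (4 to 6) are WT mice labelled AOM-DSS. They received 1 dose of azoxymethane (AOM, a carcinogen) at 10 mg/kg and 3 cycles of 2.5% dextran sulfate sodium (DSS, which injures the colonic epithelium), a model of colitis-associated cancer (CAC). Cldn2TG CAC mice (7 to 9) are Claudin-2TG mice given the same AOM-DSS treatment. Their transgene is driven by the villin promoter of the intestinal epithelium and so acts in epithelial cells, and WT mice were littermates. There was no naive Claudin-2TG group, and age and sex were described only as matched. The labels give a library number per sample and do not say that each number is a separate animal, so that p-values measure the spread between these libraries.

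MHC class II molecules show peptides from the endosome to CD4 T cells. The alpha and beta chains encoded by H2-Aa and H2-Ab1 pair as I-A, and H2-Eb1 encodes the beta chain of I-E. Newly made chains are held by the invariant chain (Cd74), which the protease cathepsin S (Ctss) trims to a short fragment. H2-DM (H2-DMa with H2-DMb1) removes that fragment and loads peptide, and H2-O (H2-Oa with H2-Ob) restrains H2-DM. H2-O is best known from B cells. Ciita encodes the coactivator that switches on class II chains, Cd74 and H2-DM together. Dendritic cells, B cells and macrophages carry class II at rest, and intestinal epithelial cells can be induced to make it by interferon gamma. In whole colon RNA, fewer cells of a type and less RNA per cell cannot be told apart.

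CIITA binds no DNA itself. It docks on factors that sit on a shared promoter module, in which an X box bound by the RFX complex is followed by a Y box bound by NF-Y. The stretches below show this module in class II genes that carry it, with the X core (GNAAC) and the Y core (GATTGG) in capitals, read 5′ to 3′ on the strand of the gene from the RefSeq promoter windows of GRCm38.p6. Each window holds 250 bases before and 50 bases after the gene start.
H2-Aa, chr17:34287861-34287910, minus strand: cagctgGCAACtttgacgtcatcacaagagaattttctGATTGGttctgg
H2-Eb1, chr17:34305770-34305818, plus strand: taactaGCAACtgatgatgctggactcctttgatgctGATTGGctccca
H2-Oa, chr17:34092297-34092346, plus strand: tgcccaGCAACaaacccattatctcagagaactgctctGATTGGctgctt
H2-Ob, chr17:34238812-34238858, plus strand: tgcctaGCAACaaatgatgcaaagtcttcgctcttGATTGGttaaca
H2-Eb2, chr17:34325537-34325585, plus strand: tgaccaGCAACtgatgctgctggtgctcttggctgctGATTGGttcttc
Between 24 and 27 bases lay between the cores, and H2-Eb2 is a chain outside the 10. Windows were listed for 7 of the 10 members, and 5 of these 7 (those shown and H2-DMb1) held an X core with a Y core 15 to 30 bases downstream. The letters and the spacing were chosen after these sequences had been seen, and the 2 cores cannot overlap. On either strand, 310 of the 32851 windows of all genes held the same arrangement (0.944%), while the Y core alone stood in 16.1%. No match was found in the windows of Ctss, H2-DMa and H2-DMb2. The arrangement is thus common to the H2-O genes and to H2-Aa, H2-Eb1 and H2-DMb1.

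Between 14142711 and 22262546 reads per library were counted on genes. Values are CPM, reads per gene relative to the size of the library after TMM scaling in edgeR. Where no read was counted, up to 3 could have been missed by counting error alone. Before TMM scaling 3 reads equal 0.135 to 0.212 CPM. After it 3 reads of H2-Oa were 0.220 CPM in Cldn2TG CAC mouse 9. Cldn2 was 192 to 258 CPM in naive WT, 122 to 136 in WT CAC and 209 to 249 in Cldn2TG CAC mice, so that the transgenic group lay above WT CAC (0.78 log2 units, SE 0.12, adjusted p = 0.0103 by edgeR) and not above naive WT. Naive WT mouse 1 was the only library with Xist, an RNA of female cells (215 CPM, at most 0.204 in the others). The part of sex in the values of mouse 1 was not tested. The labelled tissue fitted its markers, with Epcam at 2233 to 2774 CPM in all 9 libraries. Krt13 and Krt14, keratins of squamous epithelium, made up most of a summed level of 19.1 to 53.7 CPM in WT CAC mice, against 1.20 to 2.41 in naive WT and 3.07 to 4.08 in Cldn2TG CAC mice, and their part in the differences below was not tested.

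The I-A chains and the I-E beta chain were read first. Coordinates are those of GRCm38. H2-Aa (ENSMUSG00000036594, chr17:34282744-34287827, minus strand) was 51.9, 24.9 and 69.2 CPM in naive WT mice 1 to 3, 112, 558 and 566 CPM in WT CAC mice 4 to 6, and 94.5, 272 and 155 CPM in Cldn2TG CAC mice 7 to 9. H2-Ab1 (ENSMUSG00000073421, chr17:34263209-34269418) was 58.0, 32.5 and 101 CPM in naive WT, 129, 539.6 and 592 CPM in WT CAC, and 108, 279.7 and 157 CPM in Cldn2TG CAC mice. H2-Eb1 (ENSMUSG00000060586, chr17:34305877-34316199) was 47.8, 24.0 and 46.3 CPM in naive WT, 88.3, 301 and 334 CPM in WT CAC, and 54.1, 122 and 62.6 CPM in Cldn2TG CAC mice. For all 3 chains WT CAC mice 5 and 6 stood highest, WT CAC mouse 4 lay within the Cldn2TG CAC range, and mouse 8 was the highest transgenic mouse. Every treated mouse of either genotype was above every naive mouse.

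Cd74 (ENSMUSG00000024610, chr18:60803848-60812646), the invariant chain, was 146, 74.6 and 261 CPM in naive WT, 264, 1685 and 1651 CPM in WT CAC, and 299.6, 963 and 455 CPM in Cldn2TG CAC mice. Its order of mice was like that of the chains, except for WT CAC mouse 4 (264 CPM). That mouse lay below every Cldn2TG CAC mouse and was almost level with naive mouse 3 (261 CPM). Ciita (ENSMUSG00000022504, chr16:10488178-10527564), the coactivator, was 3.44, 1.40 and 3.10 CPM in naive WT, 7.48, 23.1 and 15.03 CPM in WT CAC, and 4.35, 6.80 and 3.00 CPM in Cldn2TG CAC mice. The lowest WT CAC mouse was above the highest Cldn2TG CAC mouse for Ciita, which was not so for any of the chains or Cd74, and Cldn2TG CAC overlapped naive WT. Counting did not state a strand, and Ciita shares 2.11% of its exon bases with Dexi on the opposite strand.

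The loading factor H2-DM had 2 subunits in the table. H2-DMa (ENSMUSG00000037649, chr17:34135182-34139101) was 6.13, 3.46 and 11.6 CPM in naive WT, 14.2, 45.7 and 58.5 CPM in WT CAC, and 12.3, 28.5 and 16.7 CPM in Cldn2TG CAC mice. H2-DMb1 (ENSMUSG00000079547, chr17:34153072-34160230) was 3.49, 3.21 and 12.7 CPM in naive WT, 9.09, 66.1 and 81.6 CPM in WT CAC, and 17.3, 36.7 and 20.6 CPM in Cldn2TG CAC mice. H2-DMa put the 9 mice in the same order as H2-Aa, and for H2-DMb1 WT CAC mouse 4 fell below naive mouse 3 and below every Cldn2TG CAC mouse. H2-DMb1 shares 22.7% of its 50-base stretches with the neighbouring H2-DMb2, so that reads of these 2 genes could be split between them.

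H2-O, the inhibitor of H2-DM, followed another order. H2-Oa (ENSMUSG00000024334, chr17:34092340-34095234) was 1.15, 0.301 and 0.473 CPM in naive WT, 2.91, 2.81 and 2.92 CPM in WT CAC, and 0.346, 1.11 and 0.220 CPM in Cldn2TG CAC mice. H2-Ob (ENSMUSG00000041538, chr17:34238903-34245907) was 5.53, 0.752 and 1.03 CPM in naive WT, 8.68, 5.53 and 7.21 CPM in WT CAC, and 1.24, 2.06 and 0.146 CPM in Cldn2TG CAC mice. WT CAC mouse 4, lowest of its group for the chains, was highest for H2-Ob and level with the others for H2-Oa, and naive mouse 1 was high for both. The lowest values rested on few reads, with 3 counts of H2-Oa and 2 of H2-Ob in Cldn2TG CAC mouse 9. H2-Oa also shares 15.2% of its exon bases with BC051537 on the opposite strand.

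Ctss (ENSMUSG00000038642, chr3:95526786-95556403), cathepsin S, was 507, 513 and 383 CPM in naive WT, 516, 504 and 406 CPM in WT CAC, and 576, 547 and 653 CPM in Cldn2TG CAC mice. It was the most even of the 10 genes over the 9 mice. Every Cldn2TG CAC mouse (at least 547 CPM) was above every other mouse (at most 516 CPM).

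**Figure D1:**
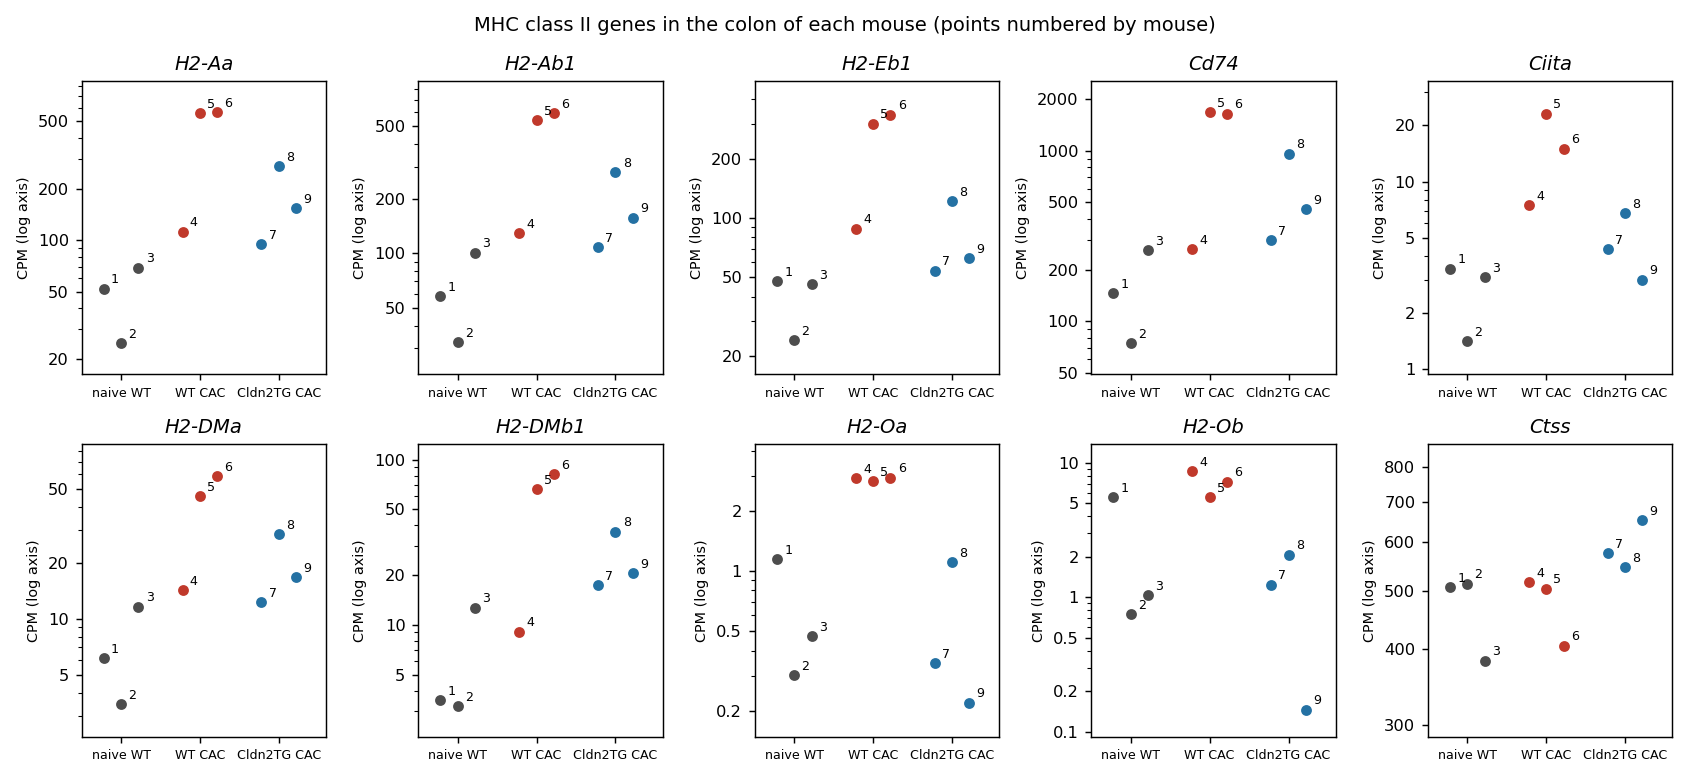
CPM (log axes, a different range in each panel) of the 10 class II genes in each mouse, numbered 1 to 9 and grouped on the x axis as naive WT, WT CAC and Cldn2TG CAC. WT CAC mouse 4 lies far below mice 5 and 6 for H2-Aa (112 against 558 and 566 CPM) but not for H2-Oa (2.91 against 2.81 and 2.92 CPM).

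Per kilobase of exon, which allows levels to be compared between genes, the order changed between groups. In naive WT mice Ctss was highest at 344 ± 53.7 CPM per kb (SD, n = 3), then Cd74 at 114 ± 66.6. H2-Ab1 (39.0 ± 21.1), H2-Eb1 (33.2 ± 11.3) and H2-Aa (26.0 ± 11.9) followed. Within each naive mouse H2-Aa was the lowest of these 3 (27.7, 13.3 and 36.9 in mice 1 to 3). H2-Ab1 was at 35.4, 19.8 and 61.6 and H2-Eb1 at 40.4, 20.2 and 39.1 in the same mice. H2-DMb1 (4.35 ± 3.64) and H2-DMa (4.30 ± 2.52) came next and were alike in the mean. H2-Ob (0.773 ± 0.85), Ciita (0.504 ± 0.207) and H2-Oa (0.487 ± 0.340) were lowest, in an order that differed between mice. In WT CAC mice Cd74 reached 851 ± 575 CPM per kb and stood above Ctss (350 ± 44.5) in mice 5 and 6 but not in mouse 4. In Cldn2TG CAC mice Cd74 (406 ± 246) and Ctss (436 ± 40.6) were close in the mean, with Ctss above Cd74 in mice 7 and 9 and below it in mouse 8, and the I-A and I-E chains were between 67.2 and 111 CPM per kb on average.

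The first comparison asked how class II genes differed in treated and untreated WT colon. Chains, coactivator and H2-DM were several-fold higher in WT CAC than in naive WT mice, and Ctss differed by almost nothing. H2-Aa rose 8.52-fold, or 3.09 log2 units (standard error, SE, 0.68, adjusted p = 0.0320 by edgeR). H2-Ab1 followed at 2.73 log2 units (SE 0.66, adjusted p = 0.0402) and H2-Eb1 at 2.62 (SE 0.54, adjusted p = 0.0262). Ciita rose by 2.53 (SE 0.48, adjusted p = 0.0194), H2-DMa by 2.48 (SE 0.62, adjusted p = 0.0431) and H2-Oa by 2.17 (SE 0.46, adjusted p = 0.0231), all log2. Cd74 did not pass the threshold at 2.91 log2 units (SE 0.78, adjusted p = 0.0516), nor did H2-DMb1 at 3.01 (SE 0.90, adjusted p = 0.0705) or H2-Ob at 1.56 (SE 0.70, adjusted p = 0.173). Ctss was at 0.03 log2 units (SE 0.16, adjusted p = 0.919). Among the 7 alternatives that kept all mice, Ciita and H2-Oa were called in 7, H2-Aa and H2-Eb1 in 6 and H2-Ab1 in 5. H2-DMa was called in 3, Cd74 and H2-DMb1 in 2, and H2-Ob in 0.

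So 6 of the 10 members rose and none fell, where 8.04% of all 15437 genes tested rose. The median log2 fold change was 2.58 over the 10 members and 0.02 over all genes. Groups did not overlap for 8 of the 10 members, higher in WT CAC in each, against 18.9% of all genes; H2-Ob is among the 8 only because WT CAC mouse 5 and naive mouse 1, both at 5.53 CPM, differ in the third decimal. The calls changed when 1 mouse was left out. Without WT CAC mouse 4, 8 members rose, Cd74 and H2-DMb1 included, and 4080 of all genes were called in either direction in place of 2310. None was called without naive mouse 2 or 3, Ciita alone without WT CAC mouse 5 or 6, and H2-Oa and H2-Ob without naive mouse 1, while all-gene calls fell to as few as 135. The direction of the median held in each of these 6 fits (2.29 to 2.95).

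**Figure D2:**
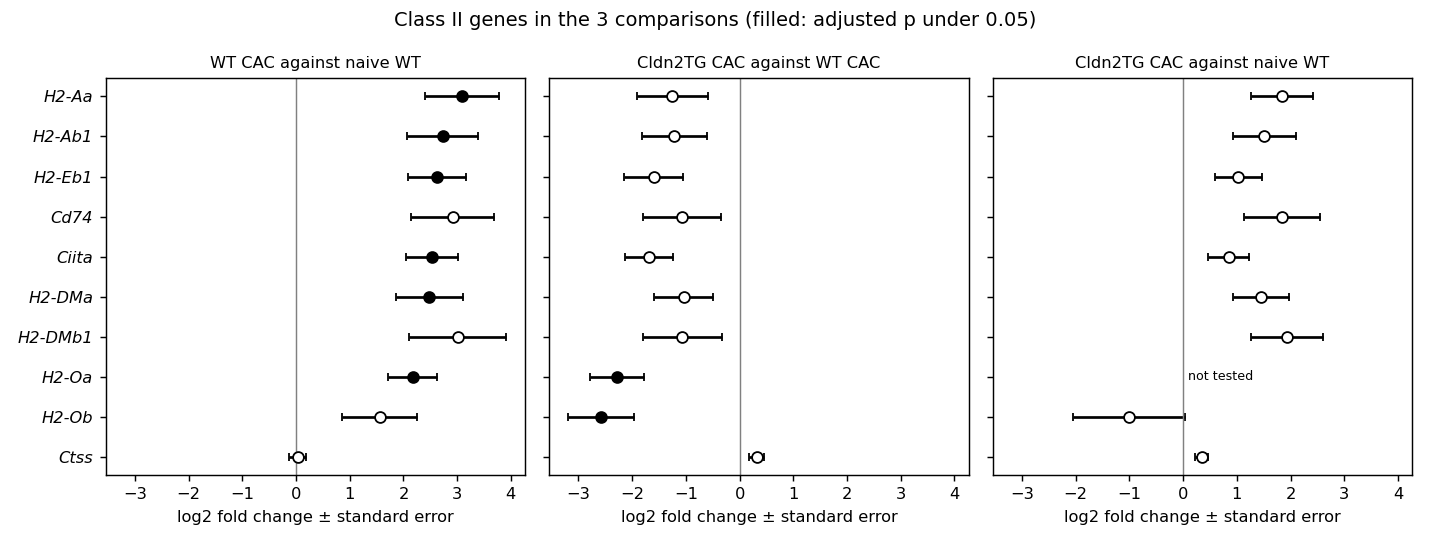
Log2 fold changes (points) with standard errors (bars) of the 10 genes on the y axis in the 3 comparisons, from edgeR's quasi-likelihood test on the 6 mice of each. Filled points are called at an adjusted p under 0.05, which are 6 in WT CAC against naive WT, H2-Oa and H2-Ob in Cldn2TG CAC against WT CAC, and none in Cldn2TG CAC against naive WT.

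The second comparison asked how the Claudin-2 transgene bears on class II genes under the same treatment. H2-O was lower in Cldn2TG CAC than in WT CAC mice, and the classical chains, Cd74 and H2-DM were not called. H2-Oa fell by 2.28 on the log2 scale (SE 0.51, adjusted p = 0.0271) and H2-Ob fell by 2.58 (SE 0.61, adjusted p = 0.0379), which left 0.206 and 0.168 of the WT CAC level. Of the 7 alternatives that kept all mice, H2-Oa was called in 6 and H2-Ob in 4, with H2-Ob lost with no filter (adjusted p = 0.0808), in the fit of all 9 mice (0.0768) and in lane 1 alone (0.0582, all by edgeR). Ciita was at -1.68 log2 units (SE 0.45, adjusted p = 0.0563), just outside the threshold, and it was called in 4 of the same 7 alternatives, DESeq2 included. H2-Eb1 was at -1.60 log2 units (SE 0.55, adjusted p = 0.135), H2-Aa at -1.25 (SE 0.66, adjusted p = 0.328) and H2-Ab1 at -1.21 (SE 0.61, adjusted p = 0.304). Cd74 was at -1.07 log2 units (SE 0.73, adjusted p = 0.468), H2-DMb1 at -1.07 (SE 0.73, adjusted p = 0.471) and H2-DMa at -1.04 (SE 0.55, adjusted p = 0.332). Ctss was the only member with a positive value, 0.32 log2 units (SE 0.14, adjusted p = 0.234).

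Hence 2 of the 10 members fell and none rose, beside 7.35% of the 14888 genes tested that fell. The median log2 fold change over the members was -1.23, and 0.01 over all genes. Ciita, H2-Oa and H2-Ob were lower in every Cldn2TG CAC mouse than in every WT CAC mouse, 3 of 10 against 15.2% of all genes. The count depended on WT CAC mouse 4. Without it 8 of the 10 members fell, with H2-Eb1 at -1.99 log2 units (adjusted p = 0.00968), H2-Aa at -1.69 (adjusted p = 0.0448) and H2-DMb1 at -1.56 (adjusted p = 0.0109, edgeR), and 1975 of all genes fell in place of 1095. H2-Oa and H2-Ob fell by about as much without it (log2 changes of -2.26 and -2.39). Leaving out either of the other 2 WT CAC mice, or Cldn2TG CAC mouse 7 or 9, ended every call among the members, and without mouse 8 H2-Oa alone was called. In the 4 fits with no call the log2 change was -2.30 to -1.93 for H2-Oa and -2.73 to -2.08 for H2-Ob, and 108 to 805 of all genes were called in either direction in place of 1421.

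The third comparison sets treated Claudin-2TG colon against naive WT colon, so that genotype and treatment differ together, and it shares its mice with the other two. The chains, Cd74 and H2-DM were higher in every Cldn2TG CAC mouse than in every naive mouse, yet none was called. H2-DMb1 was at 1.94 log2 units (SE 0.67, adjusted p = 0.154), Cd74 at 1.84 (SE 0.70, adjusted p = 0.1996) and H2-Aa at 1.84 (SE 0.58, adjusted p = 0.139). H2-Ab1 was at 1.51 log2 units (SE 0.59, adjusted p = 0.1998), H2-DMa at 1.45 (SE 0.52, adjusted p = 0.153) and H2-Eb1 at 1.02 (SE 0.44, adjusted p = 0.221). Ciita was at 0.85 log2 units (SE 0.38, adjusted p = 0.190), Ctss at 0.35 (SE 0.12, adjusted p = 0.107) and H2-Ob at -1.005 (SE 1.04, adjusted p = 0.600). The sign of H2-Ob rested on naive mouse 1, without which it was at 0.43 log2 units (adjusted p = 0.764, edgeR), and it was at -1.77 without mouse 8. H2-Oa was too low to pass the filter and was not tested.

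None of the 9 members tested was called by edgeR, beside 3.92% of 15013 genes that rose (589 rose and 912 fell, or 276 and 1310 when scaled by library size only). An unadjusted p under 0.05 was found for 5 of the 9 members and for 3896 of the 15013 genes. DESeq2 called H2-Aa alone among the members (adjusted p = 0.0164), and 1794 of all genes. The median log2 fold change was 1.45 over the 9 members and 0.00 over all genes. For 7 of the 10 members, Ctss among them, every Cldn2TG CAC mouse was above every naive mouse, against 14.9% of all genes. Without naive mouse 3 H2-DMb1 was called (adjusted p = 0.00719).

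Ratios within a library do not depend on how libraries are scaled, and 6 were formed from counts per kilobase. The sum of H2-Aa, H2-Ab1 and Cd74 was set against Ptprc, the CD45 antigen of all leukocytes. This ratio was 278, 338 and 553 in naive WT, 346, 1382 and 1641 in WT CAC, and 814, 3003 and 2199 in Cldn2TG CAC mice. Each Cldn2TG CAC mouse was above each naive mouse, 4.69-fold in geometric means (exact permutation test, two-sided p = 0.1, the lowest possible for 3 against 3, 0.45 after Benjamini-Hochberg adjustment over the 18 ratio tests). Against WT CAC the ratio was 1.90-fold higher with overlapping groups (exact p = 0.4). Ptprc itself was 10.96, 4.66 and 9.38 CPM in naive WT, 17.3, 24.1 and 20.5 CPM in WT CAC, and 7.39, 6.09 and 4.17 CPM in Cldn2TG CAC mice. All 3 Cldn2TG CAC mice were above every naive mouse for H2-Aa, H2-Ab1 and Cd74, while their Ptprc overlapped that of naive mice. The part of leukocyte number in this ratio was not tested.

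The same sum against 9 B cell markers spread widely within groups, at 10.6, 43.3 and 106 in naive WT, 12.1, 137 and 84.0 in WT CAC, and 73.0, 102 and 369.7 in Cldn2TG CAC mice. Naive mouse 1 and WT CAC mouse 4 had by far the lowest values, and no pair of groups was separated. The H2-O to H2-DM ratio was 0.432, 0.1095 and 0.0441 in naive WT, 0.336, 0.0538 and 0.0498 in WT CAC, and 0.0343, 0.0356 and 0.00889 in Cldn2TG CAC mice. All 3 Cldn2TG CAC mice were below all others (exact p = 0.1 against either group, 0.45 adjusted), at 0.229 of the WT CAC and 0.173 of the naive WT geometric mean. The value of mouse 9 rests on 5 counts of H2-O.

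H2-Eb1 to H2-Ab1, the I-E to I-A beta chain ratio, was 1.14, 1.02 and 0.635 in naive WT, 0.945, 0.772 and 0.781 in WT CAC, and 0.694, 0.604 and 0.551 in Cldn2TG CAC mice. It was lower in each Cldn2TG CAC than in each WT CAC mouse (0.740 of the WT CAC mean, exact p = 0.1, 0.45 adjusted). Cd74 to H2-A stayed between 1.35 and 2.16 in all 9 mice, the narrowest of the 6. Ctss to Cd74 ranged from 7.13 in naive mouse 2 to 0.255 in WT CAC mouse 6, and its groups overlapped in all 3 comparisons, with exact p between 0.2 and 0.4.

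**Figure D3:**
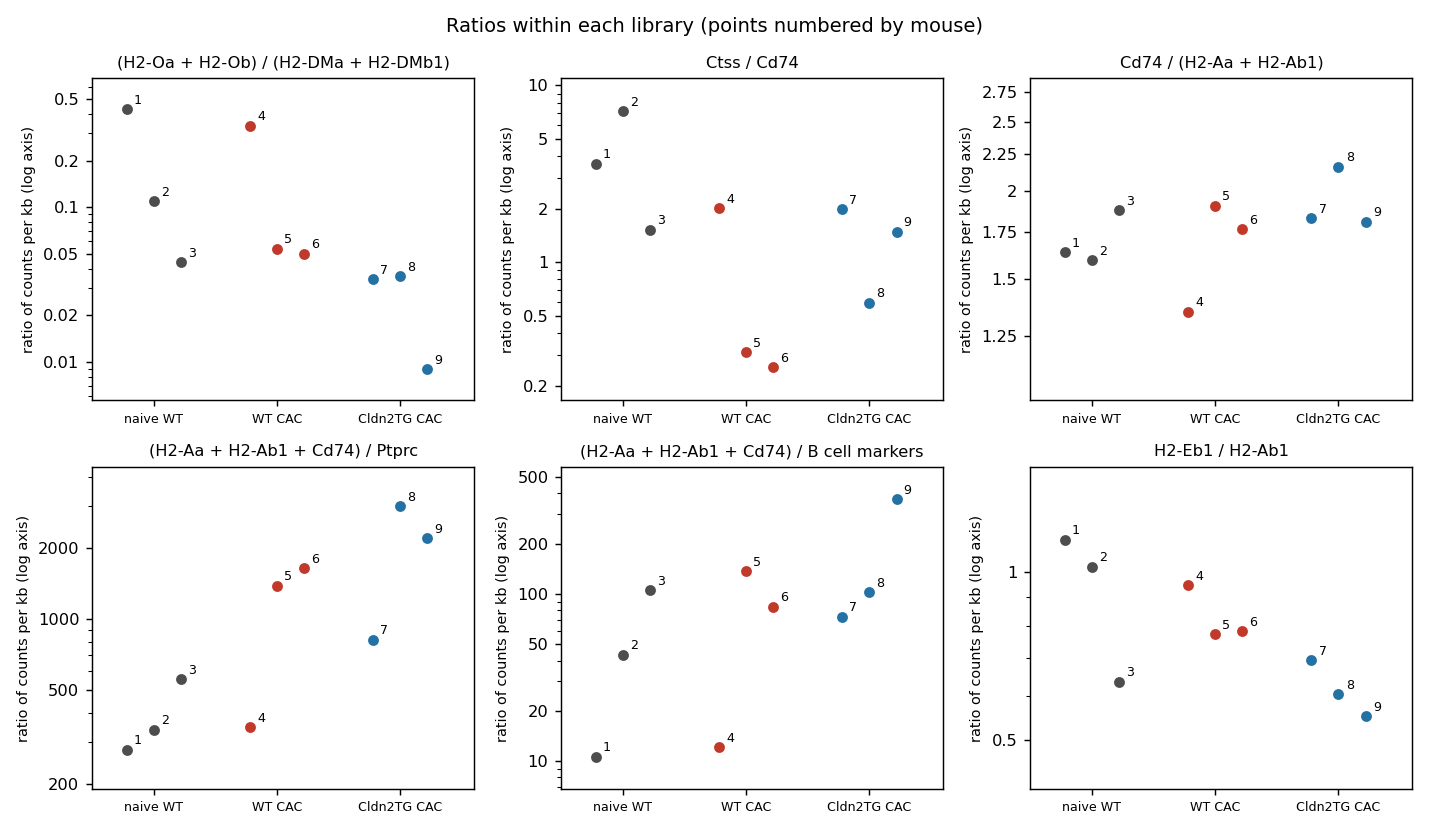
The 6 ratios of counts per kilobase (log axes) in each mouse, numbered 1 to 9, with groups on the x axis. The Cldn2TG CAC mice are the lowest 3 for (H2-Oa + H2-Ob) to (H2-DMa + H2-DMb1), at 0.00889 to 0.0356, and lie above the naive mice for (H2-Aa + H2-Ab1 + Cd74) to Ptprc, at 814 to 3003 against 278 to 553.

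Of 3 other chains of the family in the table, 2 had counts. H2-Ea-ps, the I-E alpha pseudogene of C57BL/6 mice, had no count in any library. The values of H2-Eb1 are thus RNA of the beta chain alone and do not measure I-E molecules. H2-DMb2, a second H2-DM beta chain, was 3.54, 0.752 and 0.560 CPM in naive WT, 6.24, 4.04 and 4.69 CPM in WT CAC, and 1.38, 1.76 and 0.439 CPM in Cldn2TG CAC mice. H2-Eb2 was 1.89, 0.551 and 0.430 CPM, 2.96, 1.80 and 2.92 CPM, and 0.829, 0.806 and 0.293 CPM in the same order of mice. Both fell in Cldn2TG CAC against WT CAC, H2-DMb2 by 2.03 (SE 0.44, adjusted p = 0.0252) and H2-Eb2 by 1.95 (SE 0.43, adjusted p = 0.0263) on the log2 scale. As with H2-Ob, WT CAC mouse 4 was the highest mouse and naive mouse 1 the highest naive mouse.

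Of 32 further genes of the pathway, 28 were tested in each comparison. In WT CAC against naive WT 7 rose and none fell, where 8.04% of all genes tested rose. In Cldn2TG CAC against WT CAC 9 fell and none rose, where 7.35% of all genes fell. In Cldn2TG CAC against naive WT 1 rose, a share near the 3.92% of all genes. Leaving out 1 mouse moved these counts from 0 (without naive mouse 2) to 13 (without WT CAC mouse 4) in the first comparison, from 0 (without Cldn2TG CAC mouse 8 or 9) to 12 (without WT CAC mouse 4) in the second, and between 0 and 2 in the other one. Among lysosomal enzymes, Lgmn, the asparagine endopeptidase that starts invariant chain cleavage, rose by 1.12 log2 units in WT CAC (SE 0.25, adjusted p = 0.0281) and fell by 1.21 in Cldn2TG CAC against WT CAC (SE 0.24, adjusted p = 0.0195). Ctsh, a cathepsin, rose by 0.47 log2 units in WT CAC (adjusted p = 0.0255) and by 0.41 in Cldn2TG CAC (adjusted p = 0.0314), each against naive WT, and was the only gene of the list called there. Ctsb, Ctsd, Ctsl, Ctsz and Ifi30, enzymes made by many cell types, were not called by edgeR in any comparison. Over the 3 comparisons they had 4 unadjusted p-values under 0.05, and DESeq2 called 1 (Ifi30).

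The route from interferon gamma to Ciita was read from the cytokine, its receptor and what lies downstream. Ifng was at or near 0, at most 0.272 CPM in a library. Irf1, a transcription factor that acts on the Ciita promoter, rose by 0.47 log2 units in WT CAC (SE 0.12, adjusted p = 0.0429). The receptor chains Ifngr1 and Ifngr2 and the kinases Jak1 and Jak2 were called in no comparison by edgeR's main fit. Ifngr1 in Cldn2TG CAC against naive WT had the 1 unadjusted p under 0.05 and the 1 call by DESeq2. The 7 promoter-binding factors Rfx5, Rfxap, Rfxank, Nfya, Nfyb, Nfyc and Creb1 were called by neither that fit nor DESeq2. In Cldn2TG CAC against naive WT 3 of the 7 had an unadjusted p under 0.05. There 3896 of all 15013 genes had one, and DESeq2 called 1794.

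Receptors and companions of class II on the cell surface were low throughout, at most 6.45 CPM in a library. Cd4, the coreceptor for class II, rose by 2.24 log2 units in WT CAC (adjusted p = 0.0208) and fell by 2.74 in Cldn2TG CAC (adjusted p = 0.0173). Lag3, an inhibitory class II receptor, rose by 1.91 log2 units (adjusted p = 0.0206) and fell by 2.07 (adjusted p = 0.0190). Cd86, a costimulatory ligand, rose by 1.77 log2 units (adjusted p = 0.0163) and fell by 2.59 (adjusted p = 0.00879). Cd40 fell by 2.54 log2 units (adjusted p = 0.0138) and March1, the ubiquitin ligase that removes class II and CD86 from the surface, fell by 1.86 (adjusted p = 0.0327), both in Cldn2TG CAC against WT CAC.

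Markers of the cells that carry class II were read beside these values. The 9 B cell markers summed to 4.61 to 40.0 CPM in naive WT, 33.4 to 69.2 in WT CAC and 3.44 to 25.1 in Cldn2TG CAC mice, highest in WT CAC mouse 4 and, among naive mice, in mouse 1. Ms4a1 (CD20) was 7.17, 0.652 and 1.12 CPM in naive WT, 9.20, 6.06 and 10.95 CPM in WT CAC, and 2.35, 4.53 and 0.659 CPM in Cldn2TG CAC mice, highest in naive mouse 1 among naive mice and in mouse 6 among WT CAC mice. Naive mouse 1 and WT CAC mouse 4 had the highest marker sums of their groups. Mouse 1 was also the highest naive mouse for H2-Oa, H2-Ob, H2-DMb2, H2-Eb2 and H2-Eb1, but not for H2-Aa, H2-Ab1 or Cd74. Mouse 4 was the highest WT CAC mouse for H2-Ob, H2-DMb2 and H2-Eb2 and the lowest for H2-Aa, H2-Ab1, H2-Eb1 and Cd74. In Cldn2TG CAC against WT CAC edgeR called 1 of 9 B cell markers, which fell (7.35% of all genes fell). Of the 9, 8 had an unadjusted p under 0.05, DESeq2 called 8, and 8 were lower without overlap (15.2% of all genes were). Over all 14888 genes, 3498 had an unadjusted p under 0.05 in either direction, and DESeq2 called 1484 lower. In WT CAC against naive WT edgeR called none of the 9, with 3 at an unadjusted p under 0.05 and 3 called by DESeq2. There 5032 of all 15437 genes had an unadjusted p under 0.05, and DESeq2 called 1752 higher.

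The 11 macrophage and monocyte markers summed to 161 to 186 CPM in naive WT, 174 to 328 in WT CAC and 118 to 159 in Cldn2TG CAC mice, with WT CAC mouse 4 lowest of its group. Csf1r, the receptor that macrophages depend on, was 6.53, 4.96 and 6.33 CPM in naive WT, 8.32, 25.7 and 19.0 CPM in WT CAC, and 4.77, 2.57 and 2.71 CPM in Cldn2TG CAC mice. It rose by 1.58 log2 units in WT CAC (SE 0.39, adjusted p = 0.0348) and fell by 2.41 in Cldn2TG CAC against WT CAC (SE 0.45, adjusted p = 0.0176). Adgre1 (F4/80) was 1.52, 0.856 and 1.24 CPM in Cldn2TG CAC mice, below every naive mouse (1.94 to 2.37). The 8 dendritic cell markers summed to 3.36 to 6.68 CPM in naive WT, 11.3 to 20.4 in WT CAC and 2.64 to 5.18 in Cldn2TG CAC mice, where Flt3 was 0.138, 0.0504 and 0.220 CPM and Zbtb46 0.415, 0.906 and 0.0732 CPM. Within WT CAC, both of these sums and the class II chains were lowest in mouse 4, although single markers such as Mertk (29.4 CPM, against 25.9 and 14.0 in mice 5 and 6) and Ccr7 (3.27 against 2.15 and 2.31) were highest there. Csf1r was below every naive mouse in all 3 Cldn2TG CAC mice. Within that group mouse 8 was highest for the chains, for the B cell sum and for Zbtb46, and lowest for Csf1r.

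Among the leukocyte lists, none was higher in every Cldn2TG CAC mouse than in every naive mouse. The macrophage sum was lower in all 3 Cldn2TG CAC mice, but its largest term in every mouse was Cd14 (89.6 to 112 CPM in naive WT and 69.4 to 79.3 in Cldn2TG CAC). Of the 11 markers edgeR tested 10 and called 1, Cd14, which fell, where 912 of all 15013 genes fell. Without Cd14, a sum taken after the data were seen, Cldn2TG CAC mice were at 80.1, 44.1 and 48.1 CPM and naive mice at 70.9, 65.0 and 73.2, so that the groups overlapped. The summed epithelial markers were higher (12267 to 14794 CPM against 11057 to 11912). Of these 6 markers 1 was called (Krt8), which rose, where 3.92% of all genes rose. Krt8 was the largest term in every mouse, and without it, again taken after the data were seen, the sums overlapped, at 6103 to 6529 CPM in naive WT and 6520 to 7501 in Cldn2TG CAC mice. Summed levels were also lower in Cldn2TG CAC than in naive WT mice for smooth muscle (729 to 1135 against 1571 to 2852 CPM), fibroblasts (113 to 144 against 147 to 207) and endothelium (9.47 to 12.99 against 22.1 to 26.4). T cell markers (5.51 to 11.02 CPM in naive WT, 18.0 to 29.8 in WT CAC, 7.05 to 11.3 in Cldn2TG CAC), plasma cell markers (308 to 347, 433 to 765 and 279 to 362 CPM) and the follicle stroma markers in the table (1.15 to 7.37, 7.29 to 10.1 and 1.83 to 3.27 CPM) were higher in WT CAC than in Cldn2TG CAC throughout. In naive WT and Cldn2TG CAC mice the plasma cell sum is mostly Sdc1, which epithelium also makes and which was called in no comparison, while Jchain, the joining chain of secreted IgA, was 36.7 to 87.9 CPM in naive WT, 191 to 426 in WT CAC and 22.1 to 96.5 in Cldn2TG CAC mice. Of the follicle stroma genes, Ccl21a had no count in any library. The part of cell numbers in the class II values was not tested.

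**Figure D4:**
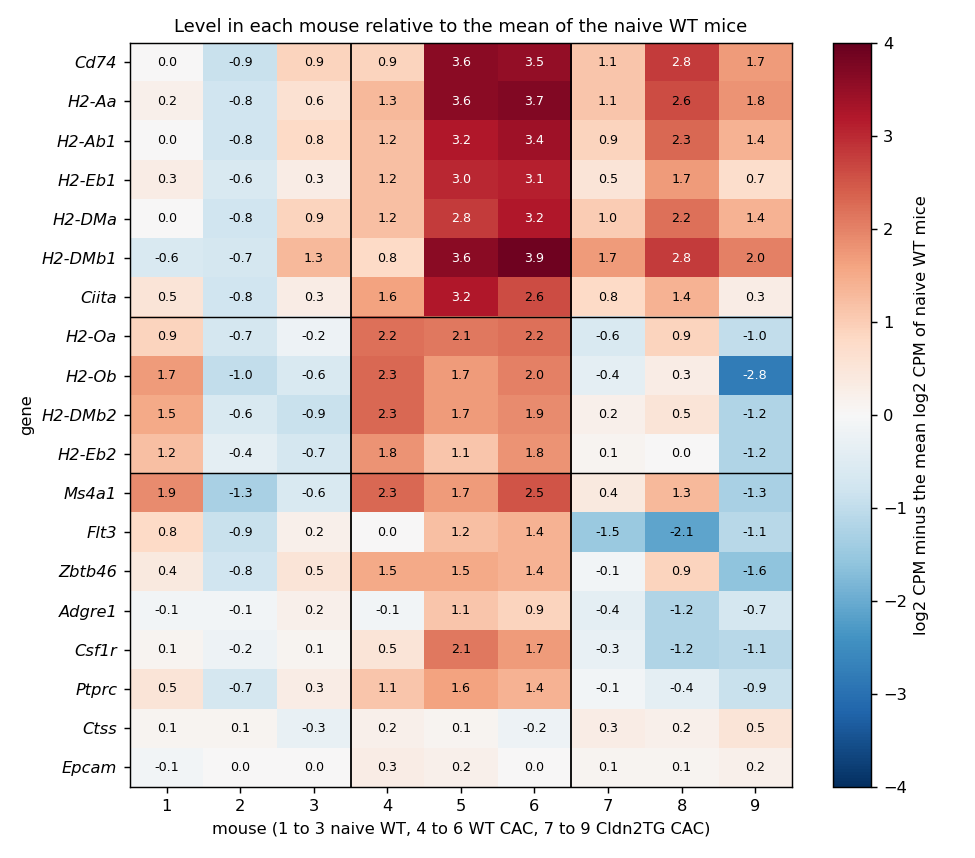
Log2 CPM of each gene (y axis) in each mouse (x axis, in the 3 groups) minus the mean of the naive WT mice, with class II chains, H2-DM and Ciita on top, H2-O, H2-DMb2 and H2-Eb2 in the middle, and Ctss and cell markers below. In WT CAC mouse 4 the upper block is at 0.8 to 1.6 and the middle block at 1.8 to 2.3, while in mice 5 and 6 the upper block is at 2.6 to 3.9.

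The genes whose pattern over the 9 mice was most like the mean of H2-Aa, H2-Ab1, H2-Eb1 and Cd74 were sought among 13909 others with a mean of at least 1 CPM. Likeness was the root mean square difference of log2 CPM centred on each gene, and it is a description. Btnl2, a butyrophilin-like gene of the MHC region, was closest at 0.42, ahead of the members H2-DMb1 (0.47) and Ciita (0.52). It was 0.598, 0.702 and 1.85 CPM in naive WT, 2.23, 8.12 and 6.598 CPM in WT CAC, and 1.38, 2.92 and 2.27 CPM in Cldn2TG CAC mice. Ncmap (0.55), Alox15 (0.58), Rbm24 (0.59) and Dusp9 (0.61) came next, and H2-Q5, a class I gene and the next in order, was level with Dusp9 to 2 decimals. H2-Oa (1.08), Ctss (1.39) and H2-Ob (1.62) were the members farthest from the pattern.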

How the data were processed

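Whole-number counts per gene, deposited without normalization, were available for 47729 genes and 18 columns, 2 lanes for each of 9 libraries. The authors counted reads with featureCounts of the Subread package. The study's methods name TopHat2 as the aligner and the submitters' processing notes name HISAT2 and GRCm38, with no versions, and the strand setting is not given in the sources used here. The protocol text lists the treatment under control samples too, so groups follow the treatment and genotype labels.

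Lanes of a library differed by counting noise in their gene proportions (chi-square per degree of freedom 0.995 to 1.06) and were summed. Lane 2 had fewer reads than lane 1 in mice 6, 7 and 9 (4023472 to 5757674 against 9143133 to 10119239). Symbols, exon lengths and coordinates came from GENCODE M21 (47224 identifiers with a symbol). Each comparison used the 6 mice of its 2 groups in edgeR 4.0.16 (R 4.3.3) with TMM, filterByExpr (minimum count 10, minimum total 15), and its quasi-likelihood F test after a robust fit, two-sided. P-values were adjusted by Benjamini-Hochberg over all genes tested, and an adjusted p under 0.05 is a call. Standard errors come from the test statistic. The biological coefficient of variation was 0.218 for WT CAC against naive WT, 0.217 for Cldn2TG CAC against WT CAC and 0.149 for Cldn2TG CAC against naive WT. CPM used TMM over 9 mice and log2 CPM a prior count of 2. Ratios had two-sided exact permutation tests (scipy 1.17.1). The fit was also run on simulated counts that had no outlying mouse, and no result given here rests on that run. Alternatives were DESeq2 1.42.0, RLE size factors, library size only, no filter, all 9 mice in 1 fit, each lane alone and leaving out each mouse.

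Named were the 10 members, other class II chains, pathway genes called in any comparison, summed marker lists with the first 2 markers of B cells, dendritic cells and macrophages, Ptprc and Epcam, and the 5 genes of most similar pattern. Other genes (the uncalled pathway genes, Mertk, Cd14, Ccr7, Sdc1, Jchain, Cldn2, Xist, Krt8, Krt13, Krt14, Ccl21a and H2-Q5) were named after their values were seen. The members and lists were chosen with earlier results of these data known. Some genes that this rule names are not reported here. H2-Ea and Fdcsp were matched to no row by symbol.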

Additional observations from a re-analysis of the deposited data

How the results depend on the processing

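The median change of the members kept its direction under each of the 7 alternatives with all mice and in each fit without 1 mouse, in all 3 comparisons, at 2.29 to 2.95 for WT CAC against naive WT, -1.69 to -0.90 for Cldn2TG CAC against WT CAC and 0.95 to 1.58 for Cldn2TG CAC against naive WT when 1 mouse was left out. The number of members called moved more. Without each mouse in turn it was 0 to 8 in WT CAC against naive WT, 0 to 8 in Cldn2TG CAC against WT CAC and 0 to 1 in Cldn2TG CAC against naive WT. With no filter it was 2 (Ciita and H2-Oa), 1 (H2-Oa) and 2 (Ciita and Ctss) in the same order, and the cause was not tested. With lane 2 alone, which has fewer reads in mice 6, 7 and 9, 1 member (H2-Ob) was called in Cldn2TG CAC against WT CAC, and DESeq2 called 1 (H2-Aa) in Cldn2TG CAC against naive WT. DESeq2 and the fit of all 9 mice each called 8 in WT CAC against naive WT, adding Cd74 and H2-DMb1. Over all genes these 2 fits called 3220 of 15437 and 3171 of 15712. For all genes, leaving out 1 mouse moved the calls between 135 and 4080 in WT CAC against naive WT and between 58 and 2894 in Cldn2TG CAC against WT CAC. In one fit of all 9 mice they were 2136 in Cldn2TG CAC against WT CAC and 445 in Cldn2TG CAC against naive WT, where no filter gave 2567. Scaling by library size only put the median log2 fold change of all genes at -0.09 in Cldn2TG CAC against WT CAC and -0.11 in Cldn2TG CAC against naive WT, and the medians of the members at -1.34 and 1.32. Of the 32 further pathway genes, DESeq2 called 11 in WT CAC against naive WT and 2 in Cldn2TG CAC against naive WT, where no filter gave 4, and the fit of all 9 mice and lane 2 alone gave 0. No paired analysis was possible because the 9 libraries carry 9 different numbers. For both comparisons with Cldn2TG CAC the H2-O to H2-DM ratio was not computed in lane 2 alone, where Cldn2TG CAC mouse 9 had 0 counts of both H2-O genes. All other ratios moved by less than 1 SD between mice. Depth limits H2-Oa and H2-Ob most, at 2 to 167 counts per library.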
